A study of Mus musculus with 8 samples.

Results

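Claudin genes were examined in the ovaries of juvenile mice with and without ghrelin O-acyltransferase (GOAT), which attaches an acyl group to the hormone ghrelin and is encoded by *Mboat4*. The 9 genes described are *Cldn10*, *Cldn1*, *Cldn3*, *Cldn4*, *Cldn5*, *Cldn7*, *Cldn11*, *Cldn12* and *Cldn15*, out of 35 claudin symbols and 45583 gene symbols in the count table. They were taken by symbol. *Cldn10* had been chosen by its read counts in GOAT KO against WT libraries in an earlier look at the same data, and the others were listed with it, so their values in the comparison of genotypes are given as a description, with no p-value for any of the 9. The samples were 4 ovaries labelled WT and 4 labelled GOAT KO, all from female mice 3 weeks of age on a C57/Bl6 background, with 1 library per animal. The WT animals carried the numbers 1118 to 1121 and the GOAT KO animals the numbers 1139, 1140, 1141 and 1146. The knockout was not restricted to the ovary, and heterozygous parents gave both genotypes, but the labels do not tie an animal to a litter.

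Claudins are small proteins that span the cell membrane and meet across the gap between neighbouring cells, where they form the strands of the tight junction. Some claudins seal the junction and others form pores through it that pass chosen ions, so the set of claudins a cell makes decides what leaks between cells. In the ovary, tight junctions are found in the surface epithelium, in blood vessels and between cells of the follicle wall.

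Reads on genes summed to between 16147216 and 19481798 per library, and between 85.92% and 87.02% of all reads had mapped to the genome. *Mboat4* had 1, 1, 1 and 3 counts in the libraries labelled WT and 5, 7, 7 and 8 counts in those labelled GOAT KO, each in order of animal number. That direction goes against the labels, no read crossed an *Mboat4* splice junction, and the part of the gene that was read is not known, so the libraries are named by their labels and each direction below rests on those labels. On a multidimensional scaling of the 500 most variable genes, GOAT KO 1139 lay apart at 1.21 on the first axis, against -0.47 to 0.17 for the other libraries, and WT 1118 lay at 0.76 on the second axis, against -0.46 to 0.32 for the rest. Markers of granulosa cells (summed level 5259 to 7181 CPM, that is, counts scaled to the library's total) and of oocytes (1126 to 1376 CPM) were present in every library, as the label ovary calls for. The study left out 1 library of each group without naming them, and the log2 fold change of each fitted claudin is also given without WT 1120 and GOAT KO 1139. This pair was chosen here and is not known to be the pair that the study left out.

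*Cldn10* (ENSMUSG00000022132.15) encodes a claudin that forms ion pores, best known from kidney. The gene lies on the + strand of GRCm38 at chr14:118787908-118875489, and its transcripts start at either of 2 first exons that are 66361 bases apart and are spliced to the same second exon. Proteins made from the 2 first exons differ in the part that lines the pore. The short sequences below are shown because they tell the transcripts apart. Each is 40 bases long and joins the last 20 bases of a first exon, in capitals, to the first 20 bases of the second exon, in lower case, which starts at chr14 position 118861696.
Cldn10 upstream first exon, chr14:118787908-118788370: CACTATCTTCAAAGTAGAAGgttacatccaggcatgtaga
Cldn10 downstream first exon, chr14:118854732-118855209: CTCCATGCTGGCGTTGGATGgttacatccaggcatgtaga

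Reads that crossed into the second exon came from the downstream first exon in all 19 cases. There were 0, 0, 2 and 7 such reads in WT 1118, 1119, 1120 and 1121, against 1, 5, 0 and 4 in GOAT KO 1139, 1140, 1141 and 1146. No read joined the upstream first exon to the second exon in any library. Over the 19 reads, the share from the downstream exon was 100%, with an exact 95% binomial interval from 82.4% to 100%, which leaves up to 17.6% for the upstream exon. By the simpler floor of 3 counts in 19, a count of 0 allows up to 15.8%. These limits cover counting error only. The junction between exons 2 and 3, which every annotated *Cldn10* transcript holds, also had 0 reads in every library. A count of 0 at a junction therefore does not show that it is unused. Reads from the downstream first exon into the second exon were found in 5 of the 8 libraries. There were 9 in those labelled WT and 10 in those labelled GOAT KO, too few per library for a test between the groups. A partial shift between the first exons was not detectable at this depth.

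Along the whole of *Cldn10*, 58 reads crossed an annotated junction, 19 in WT libraries and 39 in GOAT KO libraries. WT 1118, 1119, 1120 and 1121 had 6, 0, 4 and 9 of them, and GOAT KO 1139, 1140, 1141 and 1146 had 11, 7, 7 and 14. The groups overlapped on this measure, since 9 reads in WT 1121 exceeded the 7 in GOAT KO 1140 and 1141. Of the 6 annotated introns 3 had reads, namely the intron after the downstream first exon with 19, the intron between exons 3 and 4 with 14, and the last intron with 25. The junction that skips exon 4 had no read. Neither did the junction that leaves the second exon, which every annotated *Cldn10* transcript holds. The lack of reads at a junction of this gene therefore does not show that the junction is unused.

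**Figure D1:**
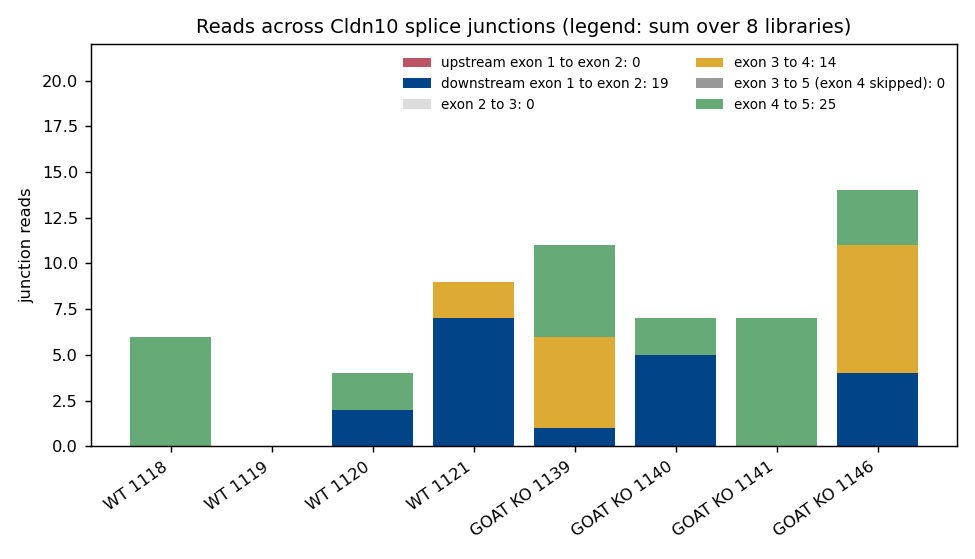
Stacked bars give the number of reads across each annotated *Cldn10* splice junction (y axis, reads) in each of the 8 libraries (x axis), coloured by junction. The junction from the upstream first exon had 0 reads in every library, that from the downstream first exon 19 in all, and WT 1119 had no junction read.

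The 2 first exons also differ in the sequence around their starts. RefSeq gives a start for each, and windows of 300 bases, from 250 bases before to 50 bases after the start, were read on GRCm38.p6. The upstream window, chr14:118787621-118787920, held 4 CG pairs and was 36% G or C, and 31.4% of the 32851 RefSeq windows of this length had fewer CG pairs. The downstream window, chr14:118854700-118854999, held 27 CG pairs and was 72% G or C, with fewer CG pairs in 84.5% of windows. The GC box GGGCGG, searched on both strands, occurred 3 times in the downstream window and not in the upstream one. It is present in 35.7% of all windows. GENCODE begins the downstream exon at 118854732, ahead of the RefSeq start, so that by GENCODE most of this window is exon sequence and its CG and GC box values are mostly those of the exon. Across the 9 genes there were 13 such windows, of which 10 held a GC box and 0 held TATAAA, against 13.6% of all windows for the latter. These matches describe the letters in the windows and show no binding.

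By read count, *Cldn10* was the 1 gene of the 9 whose groups did not overlap. Its level was 1.11, 1.44, 1.48 and 1.36 CPM in WT 1118, 1119, 1120 and 1121, and 2.51, 2.32, 2.61 and 2.44 CPM in GOAT KO 1139, 1140, 1141 and 1146. All 4 libraries labelled GOAT KO therefore lay above all 4 labelled WT, from 18 to 27 counts in the WT libraries and from 38 to 51 in the GOAT KO libraries. The means were 1.35 ± 0.165 CPM (SD, n = 4) and 2.47 ± 0.121 CPM (SD, n = 4), and the fitted log2 fold change of GOAT KO over WT was 0.87 with a standard error (SE) of 0.16. That is 1.82-fold, with an approximate 95% interval of 1.46 to 2.28. The groups of 2.92% of all 16601 genes tested did not overlap, in either direction, and 1.64% had every GOAT KO value above every WT value. At the study's rule, which asks for p under 0.05 before adjustment and a log2 fold change beyond 0.5 in either direction, 1.67% of all genes were called by edgeR, and 0.958% of all genes were called as higher in GOAT KO. Of the 8 claudins that could be fitted, 1, *Cldn10*, met that rule with all libraries. Without WT 1120 and GOAT KO 1139 the rule was met by 2, *Cldn10* and *Cldn4*, beside 2.39% of all genes, and at the study's wider limit of 0.3 the same 2 met it with all libraries, beside 2.85% of all genes, but *Cldn10* alone without GOAT KO 1141. Nothing is read from these counts because the comparison had led to the choice of genes.

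Leaving out 1 library at a time placed the log2 fold change of *Cldn10* between 0.79, without WT 1118, and 0.91, without WT 1120. It was 0.86 without GOAT KO 1139, the library that lay apart, and 0.90 (SE 0.21) without both WT 1120 and GOAT KO 1139. In the intact ovary, a change in the number of cells that make a transcript and a change in the transcript made per cell cannot be told apart. The summed level of 8 granulosa cell genes, which stands for the follicle wall, ranged from 5259 to 7094 CPM in WT libraries and from 6154 to 7181 CPM in GOAT KO libraries. None of the 8 was called, beside 1.67% of all genes. An unadjusted p under 0.05 in edgeR's quasi-likelihood test was found for 2, beside 4.62% of all genes. These were *Fshr*, the receptor of follicle stimulating hormone, with a log2 fold change of 0.47, and *Hsd17b1*, a steroid enzyme gene, with 0.31. Of the 8 granulosa genes 6 had a log2 fold change above 0 and 2 below, *Amh*, the anti-Müllerian hormone gene, with -0.21 and *Foxl2*, a transcription factor gene of granulosa cells, with -0.17. No granulosa marker was at 0. Oviduct genes, a possible carry-over at dissection, summed to 4.455 to 11.54 CPM in WT libraries, against 6.34 to 13.4 CPM in GOAT KO libraries, and the highest sum was in GOAT KO 1139. Of these 6 genes 2 lay above the filter on low counts and neither was called, beside 1.67% of all genes. The part of either list in the level of *Cldn10* was not tested across the groups.

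**Figure D2:**
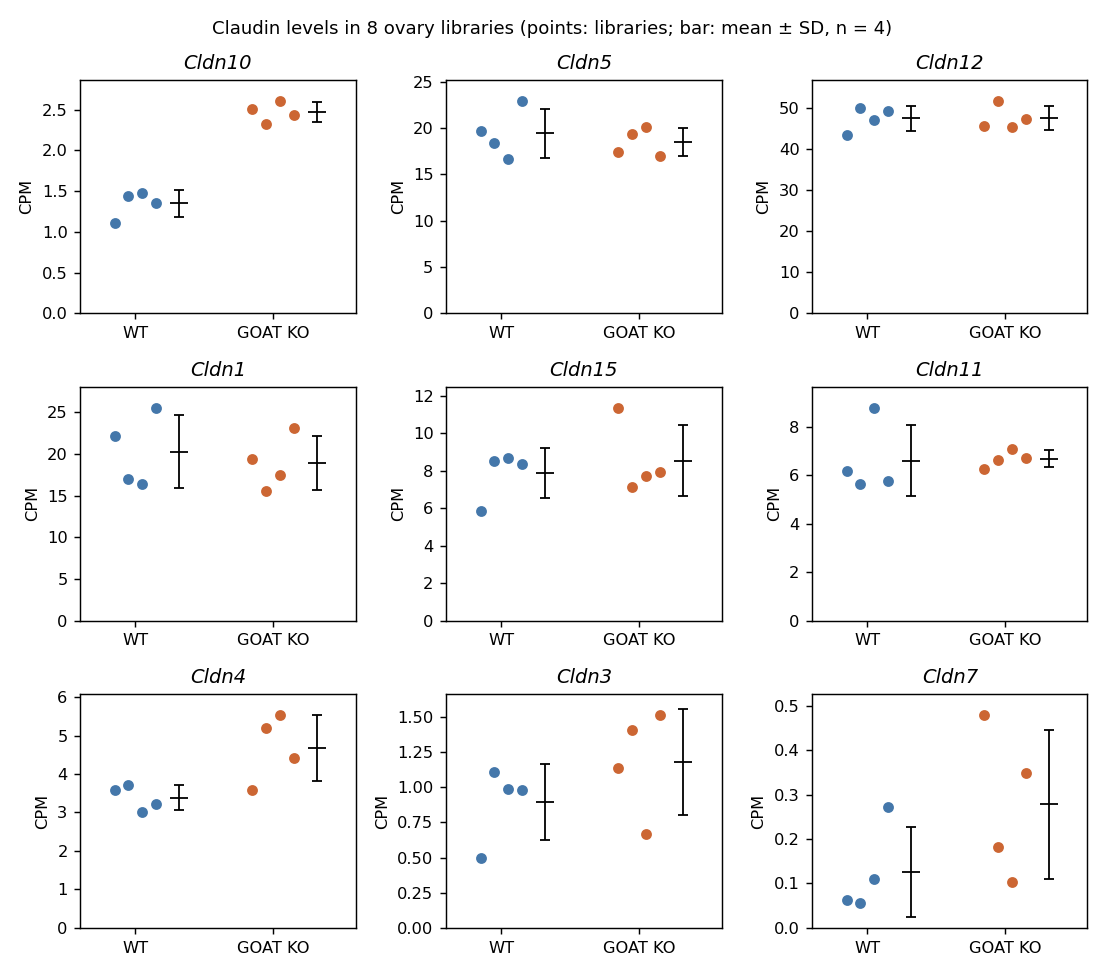
Each panel plots the level of 1 claudin in CPM (y axis, from 0) for the libraries labelled WT (blue) and GOAT KO (orange), 1 point per library in order of animal number, with the mean ± SD beside them (n = 4). The GOAT KO points of *Cldn10* all lie above its WT points, while the points of both groups overlap in the other 8 panels.

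*Cldn15*, on the + strand of chromosome 5 at chr5:136966616-136975858, is the other pore-forming claudin of the group and is known for passing sodium in the gut. It had 5.88, 8.55, 8.72 and 8.39 CPM in WT 1118, 1119, 1120 and 1121, and 11.35, 7.14, 7.72 and 7.95 CPM in GOAT KO 1139, 1140, 1141 and 1146. WT 1118 was low and GOAT KO 1139 high, and the remaining 6 libraries lay together. The log2 fold change was 0.11 (SE 0.17), -0.05 without GOAT KO 1139, and -0.004 (SE 0.16) without WT 1120 and GOAT KO 1139. *Cldn15* was the claudin whose level went most with that of *Cldn10* from library to library, after the mean of each labelled group was removed (Pearson r = 0.71 over 8 libraries, given as a description of libraries that share WT 1118 as the lowest of its group for both genes).

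Claudins that seal epithelia were *Cldn1*, *Cldn3*, *Cldn4* and *Cldn7*. *Cldn4* (chr5:134945119-134946934, − strand), which is made by many simple epithelia and binds the toxin of *Clostridium perfringens*, had 3.59, 3.72, 3.015 and 3.21 CPM in WT 1118, 1119, 1120 and 1121. Its level was 3.585, 5.19, 5.52 and 4.41 CPM in GOAT KO 1139, 1140, 1141 and 1146. GOAT KO 1139 lay among the WT libraries and the other 3 GOAT KO libraries lay above them, so the groups overlapped by 1 library. The means were 3.38 ± 0.326 CPM and 4.68 ± 0.864 CPM (SD, n = 4 each). The log2 fold change of 0.47 (SE 0.16) lay under the study's limit of 0.5, and was 0.53 (SE 0.16), beyond that limit, without WT 1120 and GOAT KO 1139. With 1 library left out it was also beyond the limit without GOAT KO 1139, at 0.58, and without WT 1119, at 0.52, and it was lowest without GOAT KO 1141, at 0.37.

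*Cldn3* (chr5:134986214-134987472, + strand) lies on the opposite strand to *Cldn4* with 39279 bases between them, and its protein binds the same toxin. It had 0.495, 1.11, 0.987 and 0.980 CPM in WT 1118, 1119, 1120 and 1121, and 1.135, 1.40, 0.665 and 1.51 CPM in GOAT KO 1139, 1140, 1141 and 1146. The groups overlapped, with WT 1118 lowest and GOAT KO 1146 highest. The log2 fold change was 0.37 with an SE of 0.31, 0.43 (SE 0.38) without WT 1120 and GOAT KO 1139, 0.19 without WT 1118 and 0.58 without GOAT KO 1141, on 8 to 26 counts per library. From library to library the levels of this pair had r = -0.34 over 8 libraries after removal of the group means, given as a description. An antisense gene, *Wbscr25*, covers 3.18% of the exon of *Cldn3*, and it is not stated whether reads were counted by strand.

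*Cldn1* (chr16:26356642-26371841, − strand), needed for the water barrier of skin, had 22.2, 17.0, 16.4 and 25.5 CPM in WT 1118, 1119, 1120 and 1121. Its level was 19.4, 15.5, 17.5 and 23.2 CPM in GOAT KO 1139, 1140, 1141 and 1146. The spread within either group was wider than the distance between them, and the log2 fold change was -0.10 (SE 0.16), or -0.20 without WT 1120 and GOAT KO 1139. Leaving out 1 library placed it between -0.21 and 0.03. *Cldn7* (chr11:69964779-69967885, + strand), found at the sides of epithelial cells, had 1, 1, 2 and 5 counts in WT libraries and 8, 3, 2 and 6 counts in GOAT KO libraries. It lay under the filter on low counts and was not fitted, and its groups overlapped.

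Markers of epithelium are set beside these genes. The summed level of *Epcam*, *Krt7*, *Krt8*, *Krt18*, *Krt19* and *Cdh1* was 97.8 to 111 CPM in WT libraries, against 87.8 to 103 CPM in GOAT KO libraries. None of the 6 was called, beside 1.67% of all genes. *Krt7*, a keratin gene of simple epithelia, had a log2 fold change of -0.35 with an unadjusted p of 0.0256 in edgeR's quasi-likelihood test. It was the 1 gene of the 6 with an unadjusted p under 0.05, beside 4.62% of all genes. The surface epithelium of the ovary, marked by *Upk3b*, *Msln* and 4 other genes, summed to 93.7 to 125 CPM and 109 to 144 CPM, with none of 6 genes called, beside the same 1.67% of all genes.

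*Cldn5* (chr16:18776847-18778262, + strand) encodes the main claudin of the endothelium and is required for the blood-brain barrier. It had 19.7, 18.4, 16.7 and 22.9 CPM in WT 1118, 1119, 1120 and 1121, and 17.4, 19.4, 20.1 and 17.0 CPM in GOAT KO 1139, 1140, 1141 and 1146. All GOAT KO values fell within the range of the WT values, and the log2 fold change was -0.07 (SE 0.11), or -0.11 (SE 0.11) without WT 1120 and GOAT KO 1139. The 7 endothelial markers summed to 317 to 369 CPM in WT libraries and 299 to 353 CPM in GOAT KO libraries, with none of them called, beside 1.67% of all genes.

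*Cldn11* (chr3:31149920-31164324, + strand), which builds the tight junctions of myelin and of Sertoli cells in the testis, had 6.19, 5.66, 8.77 and 5.77 CPM in WT 1118, 1119, 1120 and 1121. Its level was 6.27, 6.65, 7.11 and 6.73 CPM in GOAT KO 1139, 1140, 1141 and 1146. WT 1120 alone stood above the GOAT KO libraries, and the other 3 WT libraries lay below all of them. The log2 fold change was 0.02 (SE 0.15) with all libraries and 0.22 (SE 0.13) without WT 1120 and GOAT KO 1139.

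*Cldn12* (chr5:5489537-5514958, − strand), a broadly made claudin, was the steadiest of the 9. It had 43.4, 50.1, 47.25 and 49.45 CPM in WT 1118, 1119, 1120 and 1121, and 45.6, 51.8, 45.55 and 47.5 CPM in GOAT KO 1139, 1140, 1141 and 1146. Its coefficient of variation over the 8 libraries was 5.78%, against 10.8% to 75.6% for the other members. Counting error raises this measure where counts are low, and *Cldn12* had the most counts, 702 to 908 per library, against 1 to 8 for *Cldn7*. The measure also holds any difference between the groups. The log2 fold change was 0.00 (SE 0.07), with an approximate 95% interval of 0.910- to 1.10-fold, and 0.02 (SE 0.08) without WT 1120 and GOAT KO 1139. In all, 5 of the 8 fitted claudins had an absolute log2 fold change under 0.12, and the median over the 8 was 0.07, beside -0.0003 over all genes tested.

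Levels of different genes were compared as CPM per kilobase of exon, which allows for the length of each gene. On that scale *Cldn5* was highest with a mean of 13.4 and a range over the 8 libraries of 11.8 to 16.2. *Cldn12* followed with 11.3 (10.3 to 12.3), and although these ranges overlap, *Cldn5* exceeded *Cldn12* in each of the 8 libraries. Together these genes made up 58.6% of the summed claudin level per kilobase, between 53.0% and 62.0% in single libraries.

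*Cldn1*, *Cldn15* and *Cldn11* formed a middle group with means of 4.04, 3.87 and 3.55 CPM per kilobase. Their order was not stable, since *Cldn1* exceeded *Cldn15* in 3 of 8 libraries and *Cldn15* exceeded *Cldn11* in 4 of 8. *Cldn4* came next at 2.22 CPM per kilobase (1.66 to 3.04), below *Cldn11* in every library. *Cldn3* at 0.823 and *Cldn10* at 0.737 could not be ordered over all libraries, with *Cldn3* above in 5 of 8. By group, *Cldn10* had a mean of 0.521 and *Cldn3* of 0.709 CPM per kilobase in WT libraries, and 0.953 and 0.936 in GOAT KO libraries. *Cldn7* was lowest at 0.103 CPM per kilobase (0.0285 to 0.245). The gene with the non-overlapping groups was thus among the least abundant of the 9, and 14% of tested genes had a lower level per kilobase than *Cldn10*, against 69.8% for *Cldn5*.

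**Figure D3:**
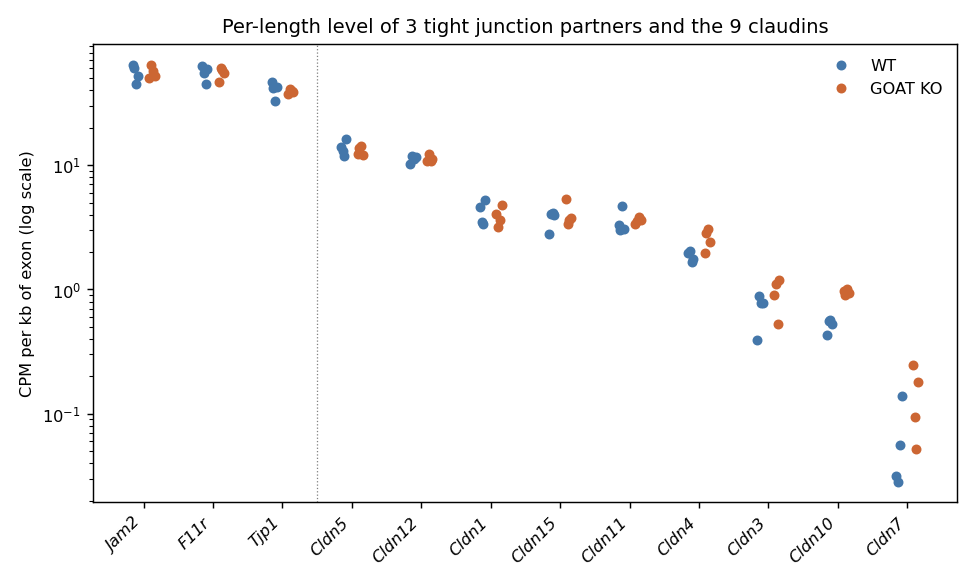
Points give the level per library in CPM per kilobase of exon (y axis, log scale) of the 3 most abundant tight junction partner genes, left of the dotted line, and of the 9 claudins in order of mean level (x axis), for libraries labelled WT (blue) and GOAT KO (orange). *Cldn5* and *Cldn12* lie above 10 in every library, *Cldn10* near 0.521 in WT and 0.953 in GOAT KO libraries, and *Cldn7* lowest.

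Splice junctions gave a second, sparser view of the members that have introns. *Cldn12* had 156 junction reads over the 8 libraries, *Cldn1* 98, *Cldn15* 35, *Cldn11* 32 and *Cldn7* 2. *Cldn3*, *Cldn4* and *Cldn5* are annotated without introns and could give none. For *Cldn12* the reads ranged from 13 to 22 per library, and for *Cldn1* from 4 to 21. The genes also share chromosomes, with 4 of the 9 on chromosome 5 (*Cldn3*, *Cldn4*, *Cldn12* and *Cldn15*) and *Cldn1* and *Cldn5* on chromosome 16.

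Of the other 26 claudin symbols, 11 had no count in any library, where a floor of 3 counts amounts to 0.154 to 0.186 CPM, and 13 had counts but lay under the filter. The 9 members held 95% of the level per kilobase summed over the 34 claudin symbols with a known exon length, between 91.5% and 96.5% in single libraries. *Cldn21* had no length and is not in that sum. *Cldn8*, a claudin of the distal nephron, had 0.681, 0.777, 1.15 and 0.708 CPM in WT 1118, 1119, 1120 and 1121, and 1.97, 0.610, 0.971 and 1.28 CPM in GOAT KO 1139, 1140, 1141 and 1146. The log2 fold change of 0.53 (SE 0.35) had an unadjusted p of 0.154 in the quasi-likelihood test of edgeR, and 0.983 after adjustment over all genes by the Benjamini-Hochberg method. *Cldn21*, which RefSeq lists as a pseudogene, had 18 to 32 counts in WT libraries and 23 to 48 in GOAT KO libraries, and a log2 fold change of 0.42 (SE 0.24, unadjusted p = 0.116 in the same edgeR test). Neither was called at the study's rule, by edgeR or by DESeq2, where edgeR called 1.67% of all genes, and both had overlapping groups. Among those with a known length, *Cldn34b2*, *Cldn8* and *Cldn34d* were the most abundant, at 0.476, 0.432 and 0.281 CPM per kilobase. *Cldn2*, named after its values were seen, encodes a pore for cations and had 7, 3, 9 and 6 counts in WT libraries and 59, 12, 4 and 8 in GOAT KO 1139, 1140, 1141 and 1146. Its 59 counts fell in the library with the highest summed oviduct genes and with 165 CPM of fat cell genes, against 7.05 to 18.1 CPM of the latter in the other libraries. All 3 fat cell genes tested were called as higher in GOAT KO by edgeR, beside 0.958% of all genes, with log2 fold changes of 4.32 for *Adipoq*, 3.24 for *Cidec* and 0.96 for *Plin1*. GOAT KO 1139 held the highest level of each, and *Adipoq* had 96.5, 2.99, 1.28 and 0.290 CPM in the GOAT KO libraries in order of animal number, against 0.548 to 2.67 CPM in WT libraries. GOAT KO 1146 lay below every WT library for *Adipoq* and *Cidec*. The part of such tissue in *Cldn2* was not tested.

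Tight junctions also need scaffold, adhesion and polarity proteins, and 25 such genes had a row in the count table. Of these 23 were tested, and 0 were called in either direction by edgeR's quasi-likelihood test at the study's rule, with 0 also at an unadjusted p under 0.05, beside 1.67% and 4.62% of all genes. DESeq2 called 0 of them as well. Their log2 fold changes were above 0 for 7 genes and below 0 for 16, with a median of -0.05. The most abundant were the junctional adhesion molecule genes *Jam2* and *F11r*, at 55.45 and 55.2 CPM per kilobase, and *Tjp1*, which encodes the scaffold ZO-1, at 40.1. Their log2 fold changes were 0.02 (SE 0.11), -0.01 (SE 0.10) and -0.07 (SE 0.09). *Ildr2*, which encodes a protein of the corners where several cells meet, was the 1 partner whose groups did not overlap, beside 2.92% of all genes. The WT libraries had 39.7, 42.0, 38.8 and 42.4 CPM of *Ildr2* and the GOAT KO libraries 38.4, 37.8, 36.8 and 37.4 CPM, a log2 fold change of -0.11 (SE 0.06, unadjusted p = 0.0817 in the same edgeR test).

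**Figure D4:**
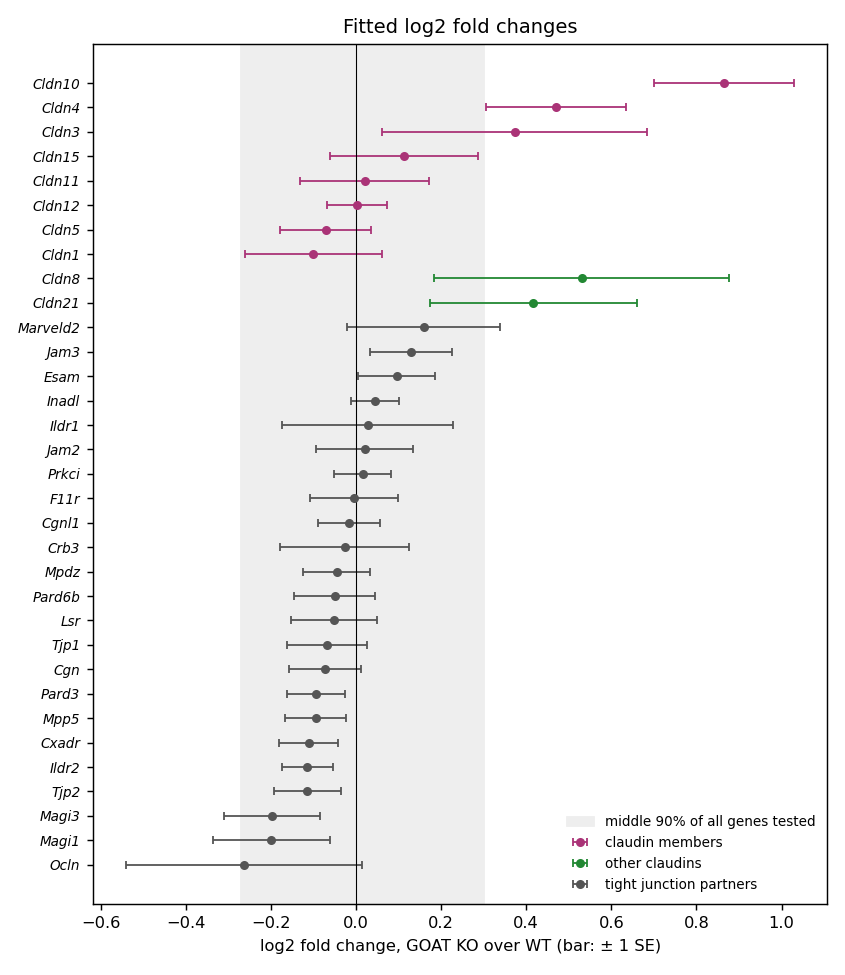
Points give the fitted log2 fold change of GOAT KO over WT (x axis) with bars of ± 1 SE for 8 claudins, 2 other claudin genes and 23 tight junction partners (rows), and the grey band spans the 5th to the 95th percentile of all genes tested, from -0.27 to 0.30. *Cldn10* at 0.87, *Cldn4* at 0.47 and *Cldn3* at 0.37 lie right of the band, as do *Cldn8* at 0.53 and *Cldn21* at 0.42, while the 23 partners lie within it.

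Whether a claudin varied with the cells that would carry it was asked after the mean of each labelled group was removed, so that the difference between the groups did not enter. Planned pairs of a claudin and a cell type list were tested by exact permutation of libraries within groups, 9 pairs in all since *Cldn7* could not be fitted. *Cldn10* and the granulosa list had r = 0.72 (two-sided exact permutation p = 0.142, adjusted p = 0.983 over the 9 pairs) and Spearman's rho = 0.74 (exact p = 0.0729, adjusted p = 0.656). Without the 2 libraries farthest from the median of the list, r was 0.58. None of the 9 pairs passed after adjustment, and the smallest p this design allows is 0.00174.

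*Cldn5* and the endothelial list had r = 0.24 (exact permutation p = 0.585, adjusted p = 0.983) and rho = 0.0 (exact p = 1.0, adjusted p = 1.0), with r = -0.04 without the 2 farthest libraries. *Cldn10* and the oviduct list had r = 0.42 (exact permutation p = 0.254, adjusted p = 0.983) and rho = 0.43 (exact p = 0.281, adjusted p = 1.0), with r = -0.56 without the 2 farthest libraries, so this value rested on those libraries. For the other 6 pairs r lay between -0.11 and 0.30, with exact permutation p values of 0.375 or more. These values were not stable, since leaving out 1 library moved *Cldn11* with theca between -0.71 and 0.75 and *Cldn4* with epithelium between -0.57 and 0.69, and without the 2 farthest libraries r was -0.67 for *Cldn1* with surface epithelium and -0.65 for *Cldn12* with granulosa.

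**Figure D5:**
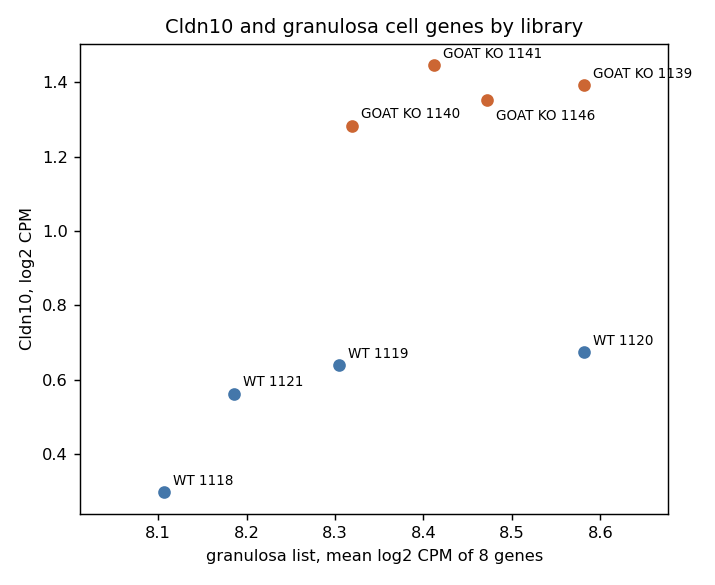
Each point is 1 library, labelled WT (blue) or GOAT KO (orange), with the mean log2 CPM of 8 granulosa cell genes on the x axis and the log2 CPM of *Cldn10* on the y axis. The granulosa level ran from 8.11 to 8.58 in WT and from 8.32 to 8.58 in GOAT KO libraries, and *Cldn10* from 0.30 to 0.67 and from 1.28 to 1.45.

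Among 15458 genes with a mean of at least 1 CPM, the genes whose level within groups was most like that of *Cldn10* were *Nap1l4*, *Gm9791*, *Mrpl18*, *Cacfd1* and *AI661453*, with r between 0.986 and 0.995 over 8 libraries. These are the highest of many values and are given as a description. Among the claudins, *Cldn3* and *Cldn12* were most alike, with r = 0.78, and *Cldn4* and *Cldn15* least, with r = -0.73.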

How the data were processed

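Total RNA of 8 ovaries was sequenced as 50 bp single reads, and the authors aligned the reads to mm10 (GRCm38) with TopHat2 2.0.14, per the labels. They deposited read counts per gene symbol without normalization, counts of reads across splice junctions per library, percentages of reads mapped per library (percent of all reads, computed by the authors) and transcripts assembled with StringTie 1.0.4, not used here. The counting tool and its use of strand are not given in the sources used here.

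Counts were fitted with edgeR 4.0.16 (R 4.3.3; TMM scaling, filterByExpr at 0.566 CPM in 4 libraries and 15 counts in all, quasi-likelihood test), with all 8 libraries and no covariate. CPM were scaled by TMM. For each log2 fold change, the SE is its value over the square root of F. A gene counted as called where p before adjustment was under 0.05 and the log2 fold change lay beyond 0.5 in either direction, as in the study's methods. Permutation tests were written in Python 3.11.15 with ranks from SciPy 1.17.1, which also gave the binomial intervals. The scripts were tested on simulated data. Nothing says that libraries came from separate litters, so p-values measure the spread between these animals. No 2 libraries of a group agreed within sampling noise (chi-square per gene 4.22 to 27.1). Positions, exon lengths and junctions come from GENCODE M21, promoters from RefSeq.

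The members, lists and tests were chosen with earlier results of these data known. The genes named are the 9 members, *Mboat4*, other claudin and partner genes that were called, the 3 most abundant of each of these lists, the 5 genes most like *Cldn10*, the member most like each member and markers of the lists, and others were named after their values were seen. A test of first exon use needed 10 junction reads in every library and was not run. Alternatives were RLE size factors, DESeq2 1.42.0, no filter, a limit of 0.3, the summed level of a list and leaving out libraries.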

Additional observations from a re-analysis of the deposited data

Results flagged for a closer look

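In groups of 4 libraries, 52 groups over 26 quantities were examined for a library far from the other 3 of its group (Dixon's ratio above its 95% critical value), which chance gives in about 1 in 20 groups, and 5 were found. *Cldn11* was 8.77 CPM in WT 1120 and 5.66 to 6.19 CPM in the other WT libraries. *Cldn15* was 5.88 CPM in WT 1118 and 8.39 to 8.72 CPM in the rest of its group. *Mboat4* was 0.163 CPM, or 3 counts, in WT 1121, against 0.0548 to 0.0619 CPM, or 1 count, in the other WT libraries. In GOAT KO 1139 the oviduct genes summed to 13.4 CPM, against 6.34 to 7.51 CPM in the other GOAT KO libraries, and the fat cell genes to 165 CPM, against 13.2 to 18.1 CPM.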

How the results depend on the processing

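The log2 fold changes of *Cldn10* and of the other 7 fitted claudins moved by less than 1 SD between libraries under each of the 12 alternatives tried for each, which were RLE size factors, DESeq2, no filter on low counts, leaving out each library and leaving out WT 1120 with GOAT KO 1139. With 4 libraries per group, leaving out 1 can hardly move a group mean by more than 1 SD. For those settings this limit is therefore no test of stability. Within that limit, leaving out 1 library could turn the sign of 5 of them, with the farthest value for each being that of *Cldn1* (0.027 without WT 1121), *Cldn5* (0.015 without WT 1121), *Cldn11* (-0.05 without WT 1119), *Cldn12* (-0.041 without GOAT KO 1140) and *Cldn15* (-0.054 without GOAT KO 1139). No upstream first exon read was present in any library, so the alternatives could not change that share. All genes called numbered 278, and 691 without the filter, 473 at a limit of 0.3, and 231 to 437 when 1 library was left out, the highest without WT 1120. Among tight junction partners 0 genes were called, and 0 to 1 with a library left out, the 1 being *Ocln* (log2 fold change -0.57, unadjusted p = 0.0363 from edgeR) without GOAT KO 1140. Among other claudins 0 were called, 2 without the filter (*Cldn2* at 1.75 and *Cldn22* at 4.26, the latter on 7, 2, 0 and 0 counts in GOAT KO libraries against 0 in WT libraries and lying within an antisense exon of *Wwc2*), 1 without WT 1120 and GOAT KO 1139 (*Cldn21* at 0.68), and 0 to 1 with a library left out (*Cldn8* at 0.74 without GOAT KO 1140). The cause was not tested. The correlation of *Cldn5* with endothelium ranged from -0.271 to 0.542 with 1 library left out, turning negative without WT 1121, and that of *Cldn10* with oviduct from -0.071 to 0.705, turning negative without WT 1118. That of *Cldn10* with granulosa was 0.648 to 0.784 with 1 library left out, 0.793 without WT 1120 and GOAT KO 1139 and 0.859 on the summed level. On the summed level the other pairs ran from -0.294 for *Cldn4* with epithelium to 0.664 for *Cldn11* with theca. *Cldn5* with endothelium had 0.259 and *Cldn10* with oviduct 0.416, and no pair passed after adjustment. The median log2 fold change of all genes moved by less than 0.01 between settings. No paired analysis was possible because the groups share no replicate numbers and the labels give no litter. With 18 to 51 counts per library for *Cldn10* and fewer for *Cldn3* and *Cldn7*, counting error limits their precision.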
